A study of Rattus norvegicus with 3 samples.

Results

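The cytochrome P450 genes of families 1 to 4 were taken as every gene whose symbol begins with Cyp1, Cyp2, Cyp3 or Cyp4 followed directly by a letter. The array carried 63 probes for 52 such genes. Of these, 38 genes (48 probes) had a probe that was well above background in at least 1 channel on all 3 arrays, out of 14179 genes tested. Of those 14179, 8908 have a gene symbol, and the others are transcripts or single probes without one that are counted as genes here. Kidney RNA of male Sprague-Dawley rats, 5 weeks old at purchase, was compared between the negative control, given no GABA, and rats whose drinking water held 200 ppm gamma-aminobutyric acid (GABA), called G200. Labels describe the tissue as kidney from a region without tumor, with 3 rats per group, and each of the 3 arrays set 1 G200 sample against control RNA. The control was labelled with Cy3 and G200 with Cy5 on every array, and the dyes were exchanged on 0 of them, so a dye effect and an effect of GABA cannot be told apart. The arrays shared 1 slide and 1 scan. Pairs of channels were compared on probes with at least 5 spots. Between control channels, the median squared difference of spot means was 0.558 to 1.01 times its squared standard error from replicate spots. Between G200 channels it was 3.78 to 9.1 times. The 3 control channels thus differed about as much as replicate spots did or somewhat more, most in 1 pair. The control is treated as 1 sample for that reason, and the tests leave out the spread between control rats.

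Cytochrome P450 enzymes are haem proteins of the endoplasmic reticulum that insert an oxygen atom into their substrates, with electrons passed on by the reductase Por. Families 1 to 3 mostly oxidise drugs, pollutants and steroids and are richest in liver, where several rat members depend on sex. Family 4 and some members of family 2 act on fatty acids, and in the kidney their products from arachidonic acid take part in the control of vessel tone and salt transport.

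The arrays held the RNA of kidney. Of 11 proximal tubule markers 10 were measured, and Slc34a1, the phosphate transporter of that segment, had log2 intensities of 13.10, 12.96 and 13.03 in the control and 13.09, 13.07 and 12.76 in G200 on replicates 1, 2 and 3. Umod, the marker protein of the thick ascending limb, stood at 14.66, 14.82 and 14.85 in the control and at 15.64, 15.62 and 15.68 in G200. Of the 4 markers of that segment, 2 were called higher, Umod (0.87) and Cldn16 (0.41), where 11.6% of all genes tested were. Slc12a1 (-0.18) and Kcnj1 (0.09) were not called. Markers of liver were also measured, 18 of 20, and are described with the P450 genes below.

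Compared with the negative control, 25 of the 38 P450 genes were called lower in G200 (limma, adjusted p under 0.05), where 25.9% of all genes tested were called lower. None was called higher by limma (0 of 38, also 0 at an unadjusted p under 0.05, where 26 were lower), against 11.6% of all genes. A fall of at least 2-fold was seen in 17, against 4.03% of all genes, and a rise of that size in 0, against 0.0282%. Among the 8908 with a symbol, as all P450 genes are, 22.4% were called lower, 11.8% higher and 2.81% lower by 2-fold. Every one of the 38 was well above background in the control on all 3 arrays, and 9 of them were so on all 3 only in the control. Passing in that way favours genes that are dimmer in G200, and each of the 9 was called lower. Among the 29 genes measured in both channels on all arrays, 16 were called lower and 12 by at least 2-fold, and 13 were not called. The shares over all 12485 genes measured in both channels were 24.3% and 4.01%. The median log2 ratio of the 29 was -0.41, and that of the 12485 genes was -0.03. In RNA of whole tissue, fewer cells of a type and less RNA per cell cannot be told apart.

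The dye scaling bears on these counts. With each array only centred on its median, 19 of 38 P450 genes were called lower and 6 higher, against 8.78% and 35.2% of all genes. With no scaling between the dyes 11 were lower and 8 higher, against 2.14% and 56.5% of all genes. The median of all genes was then 0.27 and 0.62 in place of -0.05, and the share of lower calls among all calls was 20% and 3.66% in place of 69.2%. Taken from the median of all genes, the median of the 38 P450 genes lay at -0.65 as reported. It lay at -0.71 after median centring and at -0.71 without scaling. These values include the 9 genes that passed the filter through the control channel only. With the filter in both channels, the value after loess was -0.38, and the other scalings were not run with that filter. Without scaling, the values of the called genes moved by over 1.5 times in all but Cyp3a2, Cyp2c6v1 and Cyp2t1, the last of which turned in sign. With no offset in the background correction, the same 9 genes and Cyp2j3 moved by over 1.5 times, away from 0, and so they did in the scanner's own ratio together with Cyp1a2 (-3.47). Changes below are from the scaling by loess. A named P450 or pathway gene whose direction turns without dye scaling or after median centring is given with that value. This was not done for the single marker genes.

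**Figure D1:**
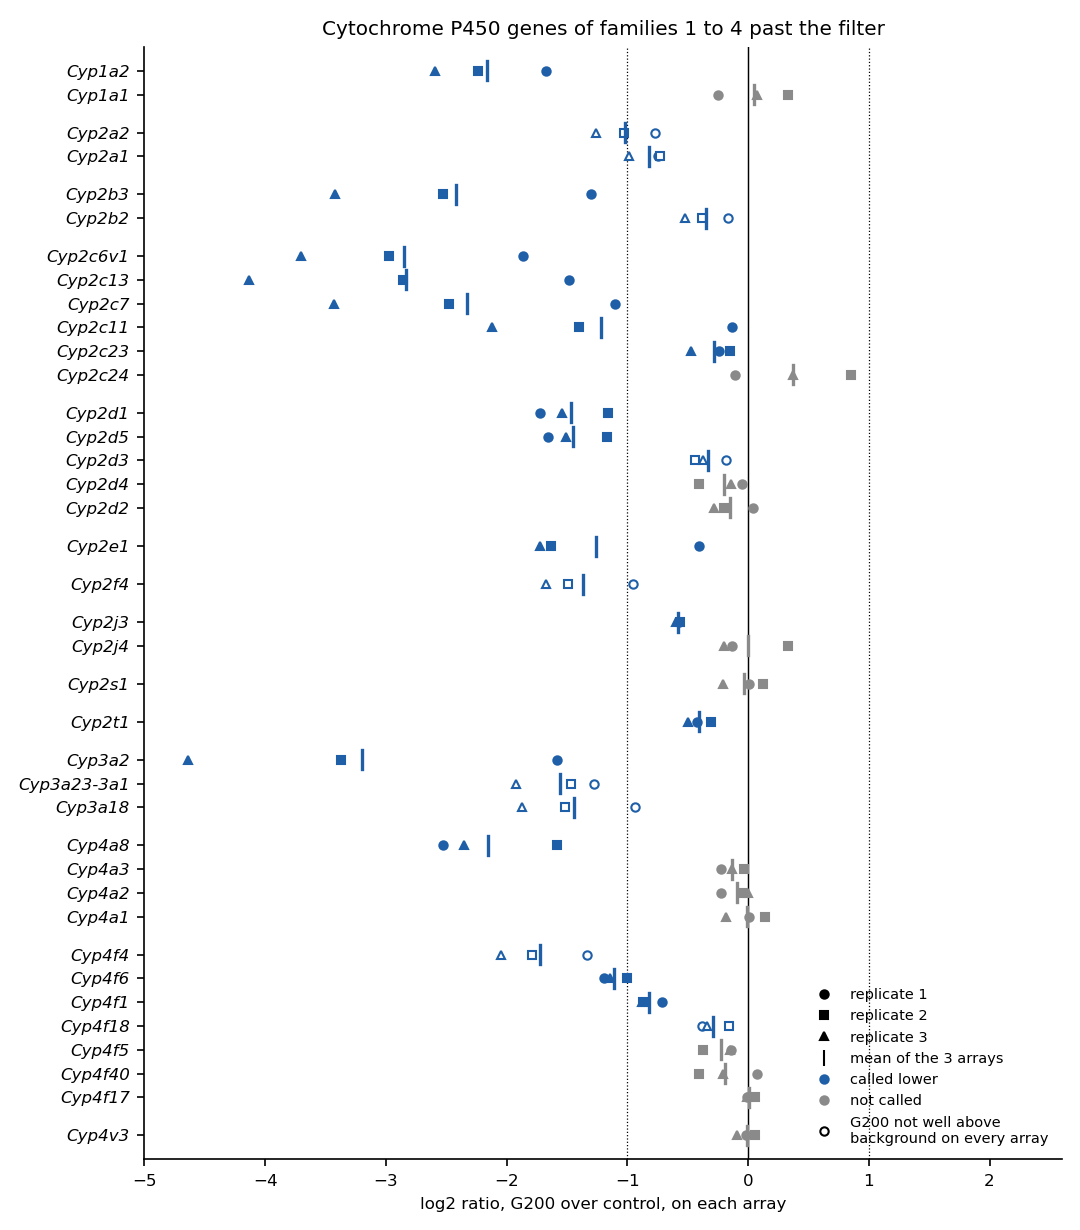
Log2 ratio of G200 over control on each array (x axis) for the 38 P450 genes past the filter, grouped by subfamily; circles, squares and triangles are replicates 1, 2 and 3, and the bar is their mean. Blue genes were called lower (25) and grey genes were not called (13), and open symbols mark the 9 genes whose G200 channel was not well above background on every array.

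The remaining 14 genes had no probe past the filter and are not counted in any direction: Cyp1b1, Cyp2a3, Cyp2b12, Cyp2b15, Cyp2b21, Cyp2c12, Cyp2c22, Cyp2g1, Cyp2j10, Cyp2r1, Cyp3a62, Cyp3a9, Cyp4b1 and Cyp4x1. Cyp2c12, the female form of liver, was well above background on 0 arrays in either channel. Cyp2c22 and Cyp3a9 were above it on 2 arrays in the control and on 0 in G200, and Cyp2r1 and Cyp4b1 on 0 in the control and on 1 in G200.

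Promoter windows of 300 bases, from 250 before to 50 after the start of transcription, were read from RefSeq (GRCr8) and held 31 of the 38 genes, with no window for Cyp1a1, Cyp2a2, Cyp2c6v1, Cyp4a1, Cyp4f4, Cyp4f17 and Cyp4v3. Both strands were searched for AGGTCA, the half-site of nuclear receptors, TGTTCT, the half-site of steroid receptors, GCGTG, the core bound by the aryl hydrocarbon receptor, TTCNNNGAA, the element of STAT factors, and TATAAA. Pairs of the same subfamily that moved alike or apart are shown, chosen after their values were seen, on build GRCr8, with every match in capitals.
Cyp4a8, chr5:133970177-133970476, minus strand: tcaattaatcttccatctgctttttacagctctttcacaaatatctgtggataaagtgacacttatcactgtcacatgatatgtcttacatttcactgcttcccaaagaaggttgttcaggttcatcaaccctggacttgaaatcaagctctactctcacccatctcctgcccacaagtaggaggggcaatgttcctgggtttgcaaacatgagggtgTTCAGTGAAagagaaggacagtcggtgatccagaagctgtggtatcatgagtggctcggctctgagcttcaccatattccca
Cyp4a2, chr5:134170859-134171158, minus strand: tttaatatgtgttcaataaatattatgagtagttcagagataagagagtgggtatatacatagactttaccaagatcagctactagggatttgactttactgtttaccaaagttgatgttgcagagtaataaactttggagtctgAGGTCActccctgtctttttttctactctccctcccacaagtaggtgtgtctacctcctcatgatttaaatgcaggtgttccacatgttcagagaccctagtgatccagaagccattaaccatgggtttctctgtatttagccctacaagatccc
Cyp2d1, chr7:115793381-115793680, minus strand: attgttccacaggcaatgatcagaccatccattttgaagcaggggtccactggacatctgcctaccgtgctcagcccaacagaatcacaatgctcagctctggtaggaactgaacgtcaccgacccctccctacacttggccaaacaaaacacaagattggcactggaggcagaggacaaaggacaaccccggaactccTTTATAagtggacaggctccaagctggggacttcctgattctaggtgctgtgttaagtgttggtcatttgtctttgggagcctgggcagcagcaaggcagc
Cyp2d5, chr7:115784438-115784737, minus strand: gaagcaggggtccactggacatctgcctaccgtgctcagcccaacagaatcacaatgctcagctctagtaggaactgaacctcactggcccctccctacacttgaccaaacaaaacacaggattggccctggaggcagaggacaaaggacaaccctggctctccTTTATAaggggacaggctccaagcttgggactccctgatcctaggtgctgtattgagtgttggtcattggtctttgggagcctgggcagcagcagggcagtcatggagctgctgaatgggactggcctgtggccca
Cyp3a2, chr12:14343808-14344107, minus strand: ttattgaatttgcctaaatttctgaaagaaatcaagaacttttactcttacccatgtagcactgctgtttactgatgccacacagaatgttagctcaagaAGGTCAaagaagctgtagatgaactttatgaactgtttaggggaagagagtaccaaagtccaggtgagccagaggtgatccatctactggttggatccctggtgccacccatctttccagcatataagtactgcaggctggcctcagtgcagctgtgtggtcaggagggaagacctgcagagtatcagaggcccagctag
Cyp3a23-3a1, chr12:14398754-14399053, minus strand: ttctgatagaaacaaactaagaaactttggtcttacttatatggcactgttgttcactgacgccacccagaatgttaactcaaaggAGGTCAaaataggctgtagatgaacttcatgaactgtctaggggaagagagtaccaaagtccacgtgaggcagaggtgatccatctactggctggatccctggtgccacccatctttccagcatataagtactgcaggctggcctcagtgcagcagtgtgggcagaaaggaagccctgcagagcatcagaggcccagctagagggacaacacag

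The 31 genes had 32 windows, since Cyp4f18 has 2 starts. AGGTCA stood in 10 of these and in 16.2% of all 33469 windows. It was present in Cyp3a2 at position -150, in Cyp3a23-3a1 at -164 and in Cyp4a2 at -105, counted from the start of transcription, while Cyp4a8 carried TTCNNNGAA at -32. TATAAA, met in 14.2% of all windows, was found in 11 of the 32, among them Cyp2d1 at -51 and Cyp2d5 at -86, where the capitals show it on the other strand. TGTTCT was found in 9 (20.7% of all windows), GCGTG in 6 (29.7%) and TTCNNNGAA in 5 (8.9%). Windows were aligned end to end, and identity was taken over all columns, with gaps counted as differences. It was 93.1% for Cyp4a2 and Cyp4a3, 80.6% for Cyp3a2 and Cyp3a23-3a1 and 58.5% for Cyp4a2 and Cyp4a8. For Cyp2d1 and Cyp2d5 it was 73.7% (247 of 335 columns). For Cyp2d1 and Cyp2d3, whose ratios were -1.47 and -0.33, it was 88.5% (269 of 304 columns). The windows of Cyp2d1 and Cyp2d5 are offset, with TATAAA at -51 and -86, which adds gaps and lowers their share. These shares therefore do not rank the Cyp2d pairs by likeness. A match describes letters in the window and was not related to the ratios by any test.

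Of the fatty acid hydroxylases of subfamily Cyp4a, 1 of 4 was called lower, no more than the 25.9% of all genes, and that call rests on 1 of 2 probes that differ in direction. Cyp4a8, a fatty acid hydroxylase of kidney, had log2 intensities of 14.18, 14.07 and 14.04 in the control and 11.65, 12.49 and 11.70 in G200 on replicates 1, 2 and 3. Every G200 value of this probe lay below the 3 control readings, which are treated as 1 sample. Its mean log2 ratio was -2.15 ± 0.50 (SD, n = 3), which is 4.45-fold lower, with limma's adjusted p = 0.00105. That value comes from the brighter of its 2 probes. The other probe, matched to the same transcript, gave log2 ratios of 0.52, 0.53 and 0.78, with a mean of 0.61 ± 0.15 (SD, n = 3) and limma's adjusted p = 0.00329 over all probes. The probes of Cyp4a8 thus went opposite ways on all 3 arrays, and the call of the gene follows the choice of probe. Averaged over both, Cyp4a8 stood at -0.77, and its brighter probe read -1.34 after median centring.

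The neighbours of Cyp4a8 on chromosome 5 did not share the ratio of its brighter probe. Cyp4a2, which makes the vasoconstrictor product of arachidonic acid in rat kidney, read 13.37, 14.46 and 14.47 in the control and 13.15, 14.42 and 14.47 in G200. Replicate 1 was lower than the others in both channels alike, and the log2 ratios were -0.22, -0.04 and 0.00 (mean -0.09, adjusted p = 0.389). Cyp4a3, which shares that activity, had a mean of -0.13 ± 0.09 (SD, n = 3), and Cyp4a1, the main liver form, of -0.01 ± 0.16 (SD, n = 3). With no scaling between the dyes, these 3 genes were called higher, at 1.11 for Cyp4a2, 0.98 for Cyp4a3 and 0.89 for Cyp4a1, with all genes at a median of 0.62. In the RefSeq order Cyp4a8, Cyp4a2, Cyp4a3 and Cyp4a1 follow each other with 0 other coding genes outside the P450s between them. Whether the probes tell the close sequences of Cyp4a2 and Cyp4a3 apart was not tested.

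Subfamily Cyp4f, whose members hydroxylate leukotrienes and other fatty acids, had 7 genes past the filter, of which 4 were called lower, against 25.9% of all genes. Cyp4f4 and Cyp4f18, 2 of the 4, passed through the control channel only. Cyp4f6 read 10.17, 10.25 and 10.29 in the control and 8.98, 9.25 and 9.15 in G200. All 3 arrays gave nearly the same ratio, and the mean log2 value of -1.11 ± 0.10 (SD, n = 3) had the lowest adjusted p among the 38 genes, 0.000732. After median centring it was -0.44, and without scaling between the dyes -0.09 and no longer called. Cyp4f4 was at 8.06, 8.08 and 7.96 in the control and at 6.73, 6.30 and 5.92 in G200, where 2 of 3 arrays were well above background. Its mean was -1.72 ± 0.36 (SD, n = 3; adjusted p = 0.000978), and -2.85 with no offset. Cyp4f1 lay just outside the 2-fold limit, with ratios of -0.71, -0.87 and -0.88 and an adjusted p of 0.00113. Median centring ended that call (-0.06), and its sign turned without dye scaling (0.29). Cyp4f18 was well above background in G200 on 0 arrays. Its measured fall was 1.23-fold (limma's adjusted p = 0.0255), a lower limit only as far as the dim G200 signal goes. That signal lay above the lowest signal of any probe well above background, so no floor entered the value. That call was lost without replicate 1 or replicate 3 and without dye scaling (-0.12). Cyp4f5 (-0.22, and 0.51 without dye scaling), Cyp4f40 (-0.19, and 0.27) and Cyp4f17 (0.01) were not called, though Cyp4f40 was called lower without replicate 1 (-0.31, adjusted p = 0.0481). Without replicate 2 Cyp4f40 stood at -0.07 and was not called. Cyp4v3, the only measured gene of its subfamily, had ratios of -0.02, 0.06 and -0.09, a mean of 0.08 by its other probe, and 0.29 without dye scaling.

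Cyp2c and Cyp2j members turn arachidonic acid into epoxides. Cyp2c23, the main epoxygenase of rat kidney, had log2 intensities of 11.51, 11.45 and 11.40 in the control and 11.28, 11.30 and 10.93 in G200. The ratios of -0.24, -0.15 and -0.47 averaged -0.28 ± 0.16 (SD, n = 3; adjusted p = 0.0404), and the call was lost without replicate 1 or replicate 3 (-0.31 and -0.19) and the value turned to 0.47 after median centring. Without dye scaling Cyp2c23 was called higher, at 0.82 (adjusted p = 0.0167). With the scanner's ratio, no offset or no block for the array the call was lost too. Cyp2j3 gave the most even ratios of the group, -0.57, -0.56 and -0.60, with an adjusted p of 0.00198. Its second probe gave -0.13, the mean of both -0.35, and the gene stood at -0.28, not called, after median centring and at 0.07 without dye scaling. Cyp2j4, a related epoxygenase, averaged 0.00 ± 0.29 (SD, n = 3), or 0.11 by its other probe, and was called higher at 0.62 after median centring. Cyp2c24 read -0.11, 0.85 and 0.37 and was not called (adjusted p = 0.131; mean 0.37, and 0.31 by its other probe), but without replicate 1 it was called higher, at 0.61 (adjusted p = 0.00836), as it was after median centring (0.99). Without replicate 2 it stood at 0.13 and was not called.

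**Figure D2:**
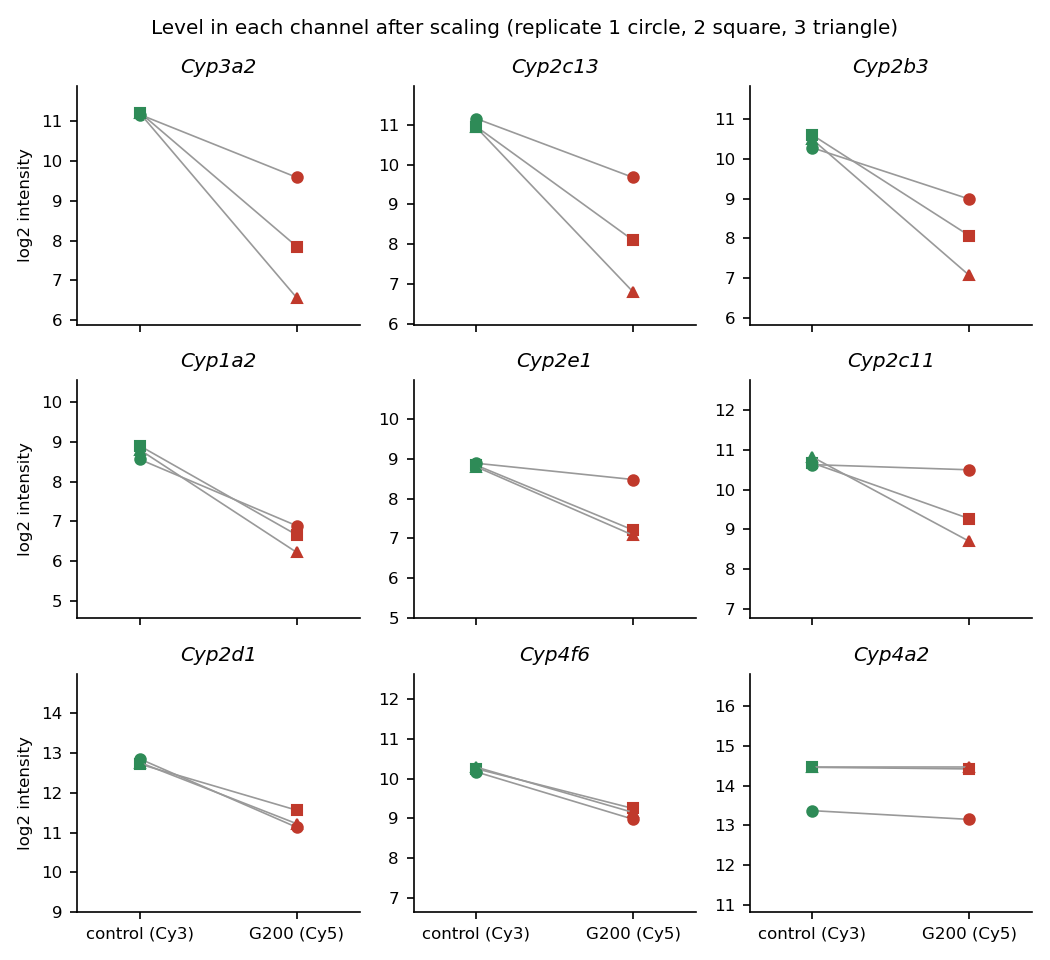
Log2 intensity of 9 P450 genes in the control channel (Cy3, green symbols) and the G200 channel (Cy5, red symbols) after scaling, each line joining the channels of 1 array; panels span the same range of log2 units around their own midpoint. Control values of a gene lie close together except for Cyp4a2, and the G200 values of Cyp3a2 spread from 6.56 to 9.59.

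Subfamily Cyp3a holds hydroxylases of steroids and drugs, and its 3 measured genes were called lower, where 25.9% of all genes were. Cyp3a23-3a1 and Cyp3a18 passed the filter through the control channel only, which favours genes dimmer in G200. Cyp3a2, which hydroxylates testosterone and is the adult male form in rat liver, had log2 intensities of 11.17, 11.22 and 11.20 in the control. In G200 it had 9.59, 7.85 and 6.56 on replicates 1, 2 and 3. Every G200 value was below the control, but they differed widely from each other. Over the arrays the log2 ratio averaged -3.20 ± 1.54 (SD, n = 3; adjusted p = 0.00616), a 9.17-fold difference, and it ranged from -4.01 without replicate 1 to -2.47 without replicate 3. Cyp3a23-3a1, which responds to the pregnane X receptor, read 7.66, 7.54 and 7.47 in the control and 6.38, 6.07 and 5.55 in G200, the latter well above background on 1 array. It averaged -1.56 ± 0.33 (SD, n = 3; adjusted p = 0.001), and -3.51 with no offset. Cyp3a18, the remaining measured member, fell from 7.74, 7.81 and 7.71 to 6.80, 6.29 and 5.84 (2 of 3 arrays above background in G200), with an average of -1.44 ± 0.47 (SD, n = 3), or -2.60 with no offset.

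In subfamily Cyp2c, 5 of 6 genes were called lower and 4 by at least 2-fold, against 25.9% and 4.03% of all genes. Cyp2c13, a male form of liver, had 11.16, 10.96 and 10.94 in the control and 9.68, 8.10 and 6.80 in G200, a log2 difference of -2.83 ± 1.33 (SD, n = 3; adjusted p = 0.00577). Cyp2c6v1, a drug hydroxylase, went from 9.80, 9.88 and 9.89 to 7.93, 6.91 and 6.19, 7.19-fold lower (adjusted p = 0.00192). For Cyp2c7, which acts on retinoids, the control had 10.32, 10.30 and 10.22 and G200 had 9.22, 7.82 and 6.79. Its 3 probes agreed in direction, with means of -2.33, -1.79 and -1.88. Cyp2c11, the chief male testosterone hydroxylase of rat liver, differed in replicate 1. It read 10.63, 10.67 and 10.82 in the control and 10.50, 9.27 and 8.70 in G200, with ratios of -0.13, -1.40 and -2.12, so that replicate 1 lay close to its control and replicate 3 far below. The mean of -1.22 ± 1.01 (SD, n = 3; adjusted p = 0.0347) was no longer called without replicate 2 (-1.12) or replicate 3 (-0.76), nor after median centring (-0.52), without dye scaling (-0.17), with the scanner's ratio or with no block for the array.

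Of the other hydroxylases of drugs and pollutants, Cyp2b3 had 10.28, 10.60 and 10.49 in the control and 8.99, 8.07 and 7.07 in G200, and its 2 probes gave means of -2.42 and -2.07. Cyp2b2, the form induced by phenobarbital, was dim and had a mean of -0.35 (adjusted p = 0.0223; -1.08 with no offset, and -0.08 and not called without dye scaling), with 1 of 3 arrays above background in G200. Its call was lost without replicate 2 or replicate 3, and its other probe, at -0.25, was not called (adjusted p = 0.0699). Cyp1a2, which oxidises caffeine and aromatic amines, read 8.56, 8.90 and 8.80 in the control and 6.89, 6.66 and 6.22 in G200. This was 4.48-fold lower, at -2.16 ± 0.46 (SD, n = 3; adjusted p = 0.000961), or -3.47 by the scanner's ratio. Its neighbour on chromosome 8, Cyp1a1, the classic target of the aryl hydrocarbon receptor, had ratios of -0.25, 0.33 and 0.07 and was not called (adjusted p = 0.763), but was called higher without dye scaling (0.56, adjusted p = 0.0335). The difference between the 2 neighbours was not tested.

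Cyp2e1, the ethanol and acetone oxidising form, was printed on 10 spots of each array. It read 8.89, 8.84 and 8.80 in the control and 8.48, 7.21 and 7.08 in G200, with ratios of -0.41, -1.63 and -1.72. The SD between its spots was 0.06, 0.08 and 0.08 on the 3 arrays, and that between the arrays was 0.73. The mean of -1.26 (adjusted p = 0.0121) lost its call without replicate 2 (-1.07) or replicate 3 (-1.02), after median centring (-0.71) and without dye scaling (-0.36). Cyp2f4, which oxidises naphthalene, had ratios of -0.95, -1.49 and -1.67 (adjusted p = 0.00155; 2 of 3 arrays above background in G200; mean -2.41 with no offset). Cyp2a2, a testosterone hydroxylase, lay just inside the 2-fold limit at -0.77, -1.03 and -1.26, and its relative Cyp2a1 just outside at -0.75, -0.73 and -0.99. Both were above background in G200 on 1 array, and with no offset their means were -2.11 and -1.87. Without dye scaling they were -0.50 and -0.40 and not called. Cyp2t1 was called lower at -0.42, -0.31 and -0.50 (adjusted p = 0.00764), which median centring turned to 0.02 and which was lost without replicate 3. Cyp2s1, at 0.01, 0.12 and -0.21 (mean -0.03, and -0.09 by its other probe), was not called, but stood at 0.57 and was called higher after median centring.

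Subfamily Cyp2d oxidises basic drugs, and 3 of its 5 measured genes were called lower, against 25.9% of all genes. Cyp2d3, 1 of the 3, passed the filter through the control channel only. Cyp2d1, the debrisoquine hydroxylase of the rat, had 12.85, 12.72 and 12.76 in the control and 11.13, 11.56 and 11.22 in G200. Cyp2d5 had 12.68, 12.64 and 12.66 and then 11.02, 11.47 and 11.16. The ratios of the pair were nearly equal on each array, -1.72 and -1.66 on replicate 1, -1.16 and -1.17 on replicate 2, and -1.54 and -1.51 on replicate 3. Means were -1.47 ± 0.28 for Cyp2d1 and -1.45 ± 0.25 for Cyp2d5 (SD, n = 3; adjusted p = 0.000962 and 0.000866). After median centring they were -0.69 and -0.67, and without dye scaling -0.34 and -0.32 and not called. These genes stand side by side on chromosome 7, and whether their probes tell the transcripts apart was not tested. The flanking genes were Cyp2d3 at -0.33 (adjusted p = 0.0199, above background in G200 on 1 array, -1.10 with no offset, -2.09 by the scanner's ratio, and not called without replicate 2, replicate 3 or dye scaling), Cyp2d4 at -0.20 and Cyp2d2 at -0.15. The last pair was not called and stood at 0.35 and 0.31 without dye scaling.

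The 3 G200 samples did not stand in the same order for all genes. In 13 of the 17 genes that were at least 2-fold lower, replicate 1 was closest to the control and replicate 3 farthest, with median log2 ratios of -1.28, -1.79 and -2.12 on replicates 1, 2 and 3. Over all 571 genes lower by 2-fold, 179 had that order. Of the 13, Cyp2a2, Cyp2f4, Cyp3a18, Cyp3a23-3a1 and Cyp4f4 passed the filter through the control channel only. Each was well above background in G200 on 1 or 2 arrays, so part of its order lies in values near background. In the remaining 4 P450 genes, Cyp4a8, Cyp2d1, Cyp2d5 and Cyp4f6, replicate 2 was closest to the control, with medians of -1.69, -1.16 and -1.52. This division was made after the values were seen.

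The liver markers had the order of the 13 genes. All 18 measured were called lower and 16 of them by at least 2-fold, against 25.9% and 4.03% of all genes. In 17 replicate 1 was closest to the control and replicate 3 farthest, an order seen in 179 of all 571 genes lower by 2-fold. Their median log2 ratios were -1.50, -2.70 and -3.89 on replicates 1, 2 and 3. Summed over the list, the intensity was 179010, 207424 and 216596 in the control and 55192, 22959 and 9372 in G200. Among these 18 markers, the brightest probe summed over the arrays was that of transthyretin, Ttr, in the control. In G200 it was that of transferrin, Tf, though on replicate 1 the Ttr probe was brighter (13.87 against 13.63). Intensities of different probes do not rank genes by abundance. Ttr had log2 intensities of 15.73, 15.66 and 15.78 in the control and 13.87, 11.86 and 10.28 in G200. Albumin, Alb, had 14.44, 15.74 and 15.93 and then 12.38, 12.01 and 10.26. Cps1 and Tat, enzymes that mark hepatocytes, did not pass the filter. Otc and Tdo2, well above background in G200 on 1 array each, passed it through the control channel only, which favours genes dimmer in G200. The 10 proximal tubule markers had medians of 0.25, 0.10 and 0.14 on replicates 1, 2 and 3. Lrp2, Aqp1 and Cubn were called higher (0.26, 0.41 and 0.45), where 11.6% of all genes were. Miox was called lower (-0.25), against 25.9% of all genes, and 6 were not called. The part of liver RNA in the P450 ratios was not tested.

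**Figure D3:**
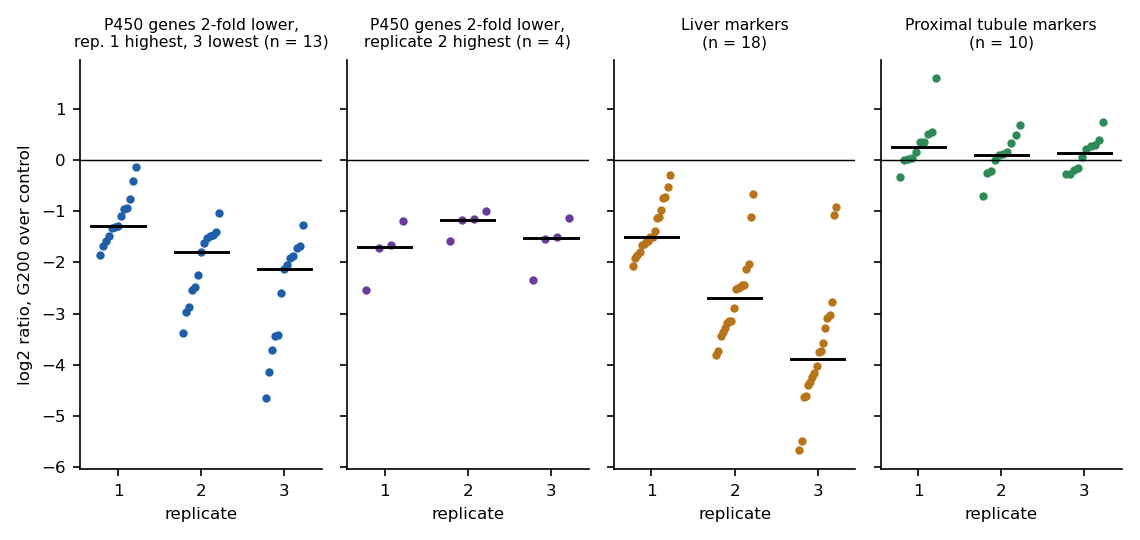
Log2 ratio of G200 over control by replicate for the 13 P450 genes lower by 2-fold with replicate 1 highest and replicate 3 lowest, the other 4, the 18 liver markers and the 10 proximal tubule markers; each point is 1 gene and the bar is the median. The 13 genes and the liver markers are lowest on replicate 3, the other 4 are highest on replicate 2, and the tubule markers lie on both sides of 0, from -0.71 to 1.59 on single arrays.

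The wide spread between the arrays weighs on the tests of these genes. Under a variance model robust to genes of unusual spread, Cyp3a2, Cyp2c13, Cyp2b3, Cyp2c7, Cyp2e1 and Cyp2c11 were no longer called, with adjusted p-values of 0.0703 for Cyp2b3 to 0.184 for Cyp2c11. The count of P450 genes called lower was then 19 of 38, where 25.8% of all genes were, that of genes lower by 2-fold 11, and 4 of the liver markers kept a call. Without shared variance between genes, 15 P450 genes were lower by the ratios at the unadjusted threshold (3093 of all 14179 genes) and 0 after adjustment (2 of 14179). Between the 2 channels with unequal variances, the test the methods name, 19 were lower unadjusted (3111 of 14179) and 1 after the adjustment made here (290 of 14179). With so few calls among all genes, these adjusted counts say little about the P450 genes. Every P450 call above but that of Cyp4f1 was lost under both with adjustment.

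Of 62 genes that supply, regulate or share pathways with the P450s, 45 were measured, of which 10 were called lower and 7 higher, near the shares of all genes (25.9% and 11.6%). After median centring 1 was lower and 19 higher (8.78% and 35.2% of all genes), so the directions in these lists follow the dye scaling. Without replicate 3 the counts were 6 and 2, against 10.1% and 1.28% of all genes. Among electron donors and epoxide hydrolases (8 listed, 7 measured), Por, the reductase of all these enzymes, had ratios of 0.02, -0.17 and -0.24 and was not called (adjusted p = 0.224; mean -0.13, and 0.12 after median centring). Ephx1, the microsomal epoxide hydrolase, averaged -0.11 (0.08 after median centring) and was not called, Ephx2 did not pass the filter, and Cyb5b, a cytochrome b5, was higher by 0.40 ± 0.12 (SD, n = 3; adjusted p = 0.00961).

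Of the transcriptional regulators, 10 of 16 were measured, 6 called lower and 1 higher, against 25.9% and 11.6% of all genes. Nr1i3, 1 of the 6, passed the filter through the control channel only. Nr1i2, the pregnane X receptor that drives Cyp3a genes, had ratios of -0.70, -0.66 and -1.10 (adjusted p = 0.003), and a mean of 0.04 without dye scaling. Nr1i3, the constitutive androstane receptor of the Cyp2b genes, was well above background in G200 on 0 arrays. Its measured fall was 1.24-fold (limma's adjusted p = 0.0134), again a lower limit only as far as the dim G200 signal goes. Hnf4a, which sustains P450 expression in liver and proximal tubule, stood at -0.33, -0.27 and -0.35 (adjusted p = 0.0129), and at 0.15 without dye scaling. Nr1h4, the bile acid receptor, was at -0.60, Cebpb at -0.57 and Nr1h3, the oxysterol receptor, at -0.54, which median centring turned to 0.05, 0.10 and 0.14. Of the 6 regulators called lower, Nr1i3 alone kept its call after median centring (-0.44, adjusted p = 0.0296), and it lost it without dye scaling (-0.09, adjusted p = 0.68). Bcl6, a repressor that opposes STAT factors at sex-dependent P450 genes of liver, read 10.13, 9.98 and 9.93 in the control and 11.37, 11.78 and 11.30 in G200. Its mean of 1.47 ± 0.29 (SD, n = 3; adjusted p = 0.000962) was the highest of all genes tested, and it was called higher after median centring too. Ahr and Ppara did not pass the filter.

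Targets of the receptor PPAR alpha, which also drives Cyp4a genes, went both ways, with 4 of 15 measured called lower and 3 higher, where 25.9% and 11.6% of all genes were. Angptl4, a lipase inhibitor, had ratios of -0.69, -1.32 and -1.49 (adjusted p = 0.00342), and Acsl1, an acyl-CoA synthetase, of -0.74, -1.33 and -1.35 (adjusted p = 0.00219). In both, as in Cyp3a2, replicate 1 was closest to the control, and after median centring neither was called (-0.57 and -0.40). Acaa1a, a peroxisomal thiolase, averaged -0.83 but 0.28 without dye scaling, while Acadm, which oxidises medium-chain fatty acids, was higher by 0.50, Acot1 by 0.39 and Cpt1a by 0.34. None of the 2 measured targets of the aryl hydrocarbon receptor outside the P450s was called. Among 11 measured enzymes of arachidonic acid outside families 1 to 4, Ptgds, a prostaglandin D synthase, was higher by 0.54 and Ptges, a prostaglandin E synthase, by 0.29, and 0 were lower. After median centring Ptges was not called (0.36, limma's adjusted p = 0.052). The 8 measured P450 genes of other families had a median of -0.23, with 4 called lower, 1 higher and 0 lower by 2-fold. The shares of all genes were 25.9%, 11.6% and 4.03%. Of the 4 called lower, 2 passed the filter through the control channel only, which favours genes dimmer in G200.

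**Figure D4:**
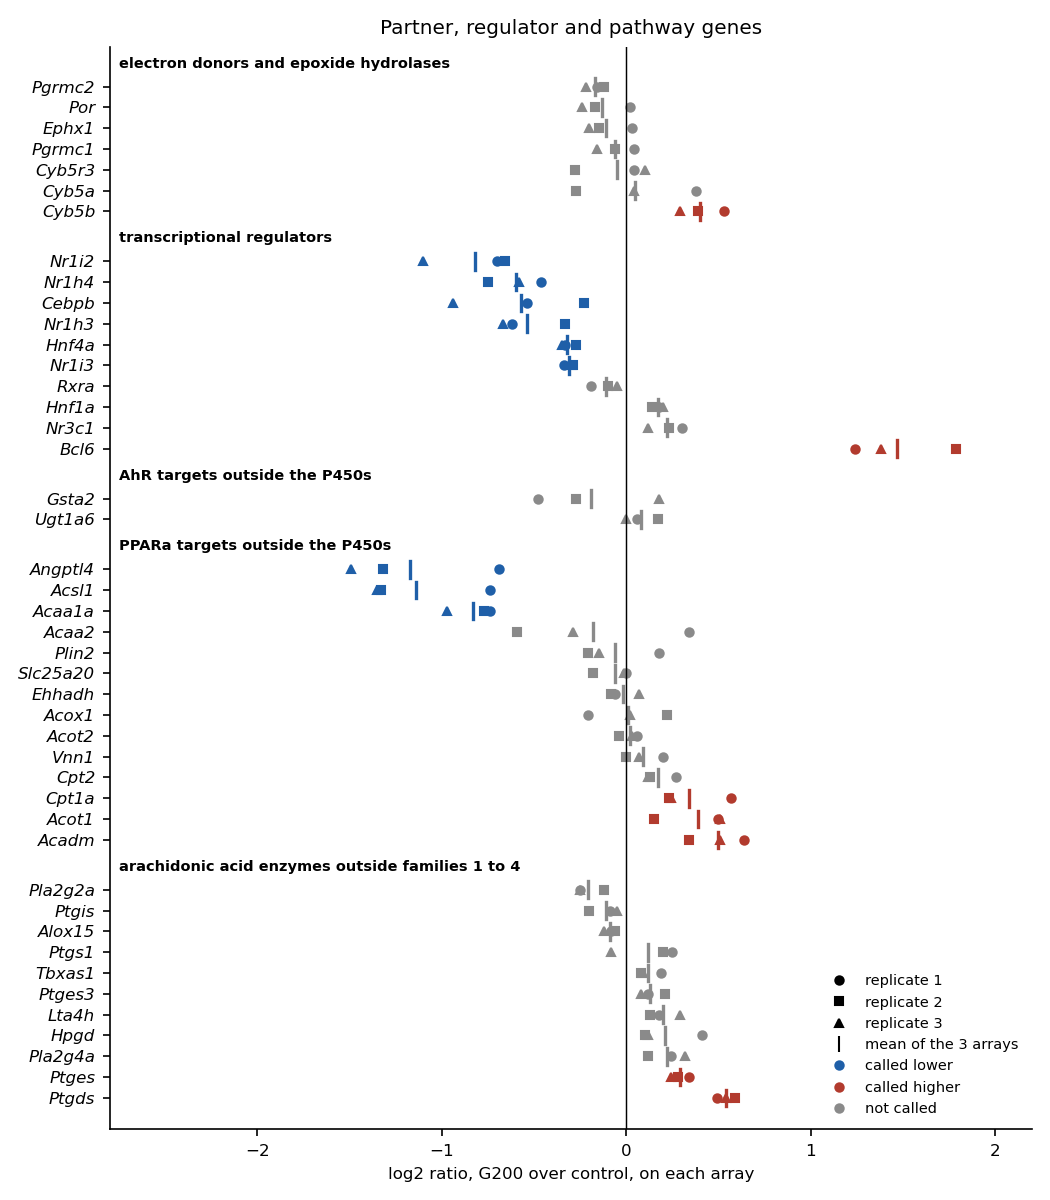
Log2 ratio of G200 over control on each array (x axis) for 44 of the 45 measured partner, regulator and pathway genes by list; symbols are replicates and the bar is their mean. Blue genes were called lower (9), red genes higher (7), and grey genes were not called (28).

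**Figure D5:**
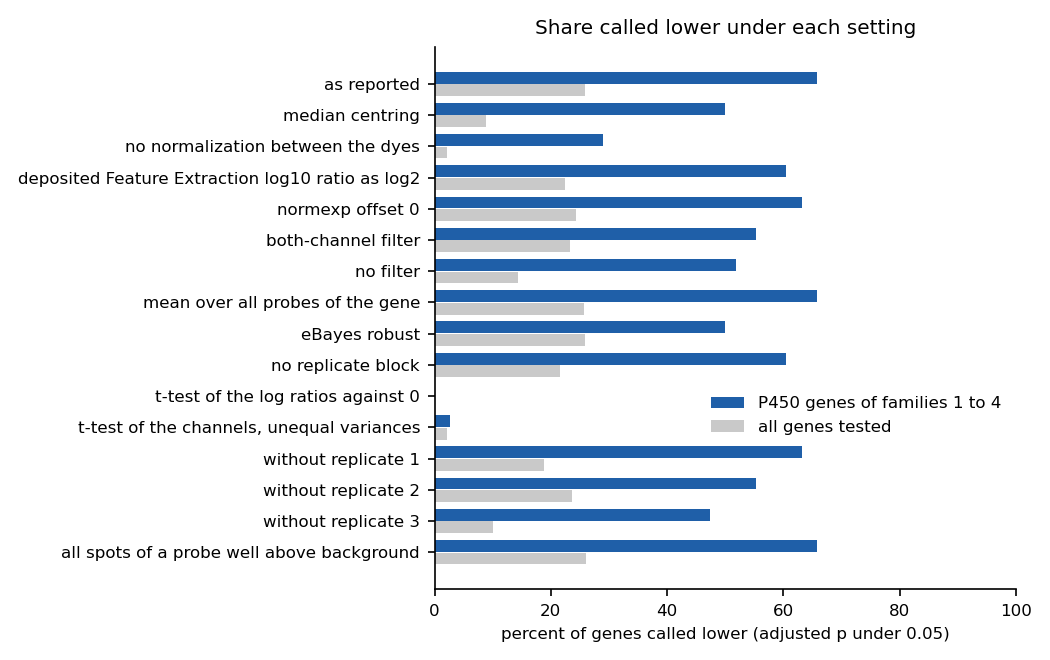
Percent of genes called lower (x axis) among the P450 genes of families 1 to 4 (blue) and among all genes tested (grey), as reported and under each other setting. As reported the shares were 65.8% and 25.9%, and without scaling between the dyes 28.9% and 2.14%. Both include the 9 P450 genes that passed the filter through the control channel only. With the filter in both channels the shares were 55.2% and 23.3%.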

How the data were processed

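Kidney RNA was hybridised to 3 two-colour Agilent arrays, and the authors deposited the Feature Extraction output of each. Per the file headers the version was 11.5.1.1, and the processing notes in the labels name 9.3.2.1. The deposited spot and background values are median intensities before correction, the deposited log10 ratio was made by the scanner software after background subtraction and dye normalization, and the deposited marks say which spots were outliers or well above background. From the intensities, the background was corrected here by normexp (offset 50) on all 44254 spots and the dyes by loess within each array, in limma 3.58.1 (R 4.3.3). A mean spot signal had been planned, and the median stood in for it. Control spots and outlier spots (635, 736 and 945) were left out, and spots of a probe were averaged. A probe counted as well above background where more than 0.5 of its spots were. That reading was picked after the files were seen, among 8 that kept 15584 to 15712 probes, because it gave the number of an earlier treatment of these data. Probes above background in 1 channel on all 3 arrays were kept (15649, less 2 with no ratio on an array once outlier spots were out, so 15647), and the brightest stood for its gene.

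Symbols came from RefSeq accessions (GRCr8) for 18355 of 30367 probes (60.4%), and a probe without one was tested under its accession or probe name. Levels in each channel are after quantile scaling of mean intensity between arrays. The mean log2 ratio was tested against 0, two-sided, by lmFit and eBayes, and p-values were adjusted over 14179 genes by Benjamini and Hochberg. The array is the block of each ratio, since both channels of 1 number were hybridised together. Titles number the rats 1 to 3, and p-values measure the spread between them. Named are all P450 genes past the filter, the called genes of the pathway lists (1 is left out) with Por, Ephx1, Ephx2, Ahr, Nr1i2, Nr1i3, Ppara and Hnf4a, and the marker genes. Members and lists were chosen with earlier results of these data known. The limma fit and the adjustment of p-values were tested on simulated log ratios of genes. Background correction, dye scaling, the filter and the choice of probe were not part of that test. The share of changed genes recovered fell just short of the limit first set for that test, and a lower limit was put in its place after the result was seen. Other settings tried were the dye scaling, offset, filter, probe choice, variance model, block, t-test and leaving out each replicate.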

Additional observations from a re-analysis of the deposited data

How the results depend on the processing

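Of 561 pairs of a P450 gene and another setting, 434 kept direction and side of the threshold, 19 changed sign with no call on either side, 87 lost the call, 7 gained one and 14 changed sign with a call on either side. The last 14 all came from the dye scaling. After median centring they were Cyp2c23 (0.47), Cyp2s1 (0.57), Cyp2t1 (0.02), Cyp4a1 (0.54), Cyp4a2 (0.76) and Cyp4a3 (0.63), and with no normalization between the dyes Cyp2c23 (0.82, called lower as reported and higher here), Cyp2j3 (0.07), Cyp2s1 (0.92), Cyp2t1 (0.37), Cyp4a1 (0.89), Cyp4a2 (1.11), Cyp4a3 (0.98) and Cyp4f1 (0.29). Median centring gave 6 P450 genes called higher, 11 lower by 2-fold, 1 pathway gene lower and 19 higher, and a P450 median of -0.44. No normalization gave 11 lower, 8 higher, 8 lower by 2-fold, 2 higher by 2-fold, 0 pathway genes lower and 27 higher, and a median of -0.09. The median was -1.39 with the deposited log10 ratio (11 pathway genes higher), -1.10 with offset 0, -0.41 with the filter in both channels (16 genes lower, fewer genes entering) and -0.24 with no filter. The robust variance model gave 11 lower by 2-fold. A t-test of the log ratios against 0 called 0 P450 genes lower, 0 by 2-fold and 0 pathway genes either way after adjustment (15 P450 genes lower unadjusted), and the t-test of the channels with unequal variances, which the methods name without an adjustment, 1, 0, 0 and 0 after adjustment (19 unadjusted). Without the block of the array 23 were called lower, against 21.6% of all genes. Leaving out each replicate gave 18 to 24 genes lower, 0 to 1 higher, 6 to 11 pathway genes lower and 2 to 8 higher, 14 to 17 genes lower by 2-fold, and medians of -0.72 to -0.65. Of all genes, 18.8%, 23.6% and 10.1% were called lower without replicates 1, 2 and 3, and 6.08%, 11.4% and 1.28% higher. Requiring all spots of a probe above background, a setting chosen after seeing the data, gave 25 lower, against 26% of all genes. With 3 arrays and 9 P450 genes near background in G200, ratios of dim genes are limited by signal over background, and offset 0 widens them.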
